A study of Mus musculus with 42 samples.

Results

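The genes described here encode the subunits of the ionotropic GABA-A receptors and the ionotropic and metabotropic glutamate receptors. They were defined by a rule on the symbols of protein-coding autosomal genes of the mm10 annotation. The choice was made with earlier results of these data known. Symbols start with Gabra, Gabrb, Gabrg, Gabrd, Gabrp or Gabrr, or with Gria, Grid, Grik, Grin or Grm and a digit. The rule gave 42 of 20807 autosomal protein-coding genes, at 33 loci on 12 chromosomes when neighbours within 1 Mb were joined. They comprise 16 GABA-A receptor genes, 17 ionotropic and 8 metabotropic glutamate receptor genes, and Grid2ip, which met the rule by its symbol but encodes an interacting protein and no receptor. For each gene it was asked whether it lay in a lamina-associated domain (LAD) of mouse liver.

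GABA-A receptors are pentameric chloride channels, most often built of alpha, beta and gamma subunits, and mediate fast inhibition in the brain. Ionotropic glutamate receptors (AMPA, kainate and NMDA receptors) are tetrameric cation channels that mediate fast excitation, and the metabotropic receptors signal through G proteins. Their main place of action is the synapse. LADs are large, mostly gene-poor stretches of chromatin in contact with the nuclear lamina, a meshwork that includes lamin B1 (LMNB1), and genes of other cell types are often found in them.

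LADs were mapped by LMNB1 ChIP-seq in livers of wild-type C57Bl/6 mice kept in light and dark cycles. The groups are non-synchronized mice (NS), taken the day before food was withdrawn, and mice fasted for 24 h, refed freely from circadian time 0 (CT0) and taken at CT0, CT6, CT12, CT18, CT24 or CT30, with 2 mice per group and 14 libraries in all. All CT mice were thus fasted, and all but those of CT0 were refed; no group was left unfasted alongside them, so circadian time cannot be told apart from time since refeeding. The labels name the mice male in one field and female in another. Each value below is from 1 mouse, and every mean ± SD has n = 2.

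The files give the start and end of each LAD per mouse and hold no read count or score. The depth behind a call is therefore unknown, and the precision comes only from the 2 mice. LADs covered 335 Mb in NS replicate 1, the lowest value, and 663 Mb in CT18 replicate 2, the highest, and the step between LAD borders ranged from 4 to 61 kb among libraries, coarsest in NS replicate 1. A gene was ascribed to a LAD when its start site lay inside one, and the share of the gene body within LADs was measured besides. No expression values were used, so the tissue could not be checked by its markers. Of 16 liver genes, 0 had the start site in a LAD in any library, and 82.9% of all genes were in none either. This count is therefore no check of the tissue.

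The start sites of 7 receptor genes lay in a LAD in all 14 libraries, 16.7% of the 42 genes, against 0.875% of all autosomal protein-coding genes. Gabra6, Gabrb2, Grik2 and Grm7 were among these 7. Another 15 genes lay in a LAD in 1 to 13 libraries (35.7%, against 16.2% of all genes), and 20 in none. Pooled over libraries, 22 of the 42 genes (52.4%) were thus in a LAD in at least 1 library, where the share of all genes was 17.1%, and 16 were in a LAD in at least 7 libraries (38.1%, against 8.2% of all genes). The 22 genes lie at 14 loci and the 7 at 4 loci, so that neighbouring genes are not separate observations. Since the genes were chosen with results of these data known, these shares were not tested.

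Promoters of genes from both ends of this range are shown, as the 250 bases upstream of the annotated start, with CG pairs in capitals. Gabra6 had the lowest CpG content (observed over expected CG pairs in the 1 kb centred on the start site) among the genes in a LAD in all 14 libraries, and Grin1 and Grin2d had the highest and the lowest among those in none.
Gabra6, chr11:42321073-42321322, minus strand: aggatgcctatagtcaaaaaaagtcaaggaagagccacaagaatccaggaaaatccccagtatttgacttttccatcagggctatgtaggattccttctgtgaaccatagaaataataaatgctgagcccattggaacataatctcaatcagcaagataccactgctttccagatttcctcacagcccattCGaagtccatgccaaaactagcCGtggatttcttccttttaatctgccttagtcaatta
Grin1, chr2:25319188-25319437, minus strand: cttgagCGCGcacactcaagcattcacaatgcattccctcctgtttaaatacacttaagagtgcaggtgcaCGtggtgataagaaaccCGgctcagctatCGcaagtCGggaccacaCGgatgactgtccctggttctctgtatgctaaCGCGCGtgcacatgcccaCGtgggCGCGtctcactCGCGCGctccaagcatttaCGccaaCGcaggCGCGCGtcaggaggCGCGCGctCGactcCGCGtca
Grin2d, chr7:45878379-45878628, minus strand: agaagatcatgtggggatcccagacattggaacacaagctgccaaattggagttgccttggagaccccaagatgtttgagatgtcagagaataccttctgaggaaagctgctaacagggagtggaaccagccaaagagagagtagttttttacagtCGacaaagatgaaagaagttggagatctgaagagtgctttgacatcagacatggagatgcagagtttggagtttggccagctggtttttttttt
The Gabra6 sequence holds 2 CG pairs, while the Grin1 sequence holds 27 and that of Grin2d holds 1. Over all promoters the median was 8, and 92.6% held at least 1. CpG observed over expected was 0.160 at Gabra6, 0.977 at Grin1 and 0.0870 at Grin2d. Promoters poor in CG pairs were thus found on either side. For Grin2d the RefSeq start lies 11.7 kb from the annotated start used here and had a value of 0.848 in a window from 250 bases before to 50 after it, so its low value depends on which start is taken.

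**Figure D1:**
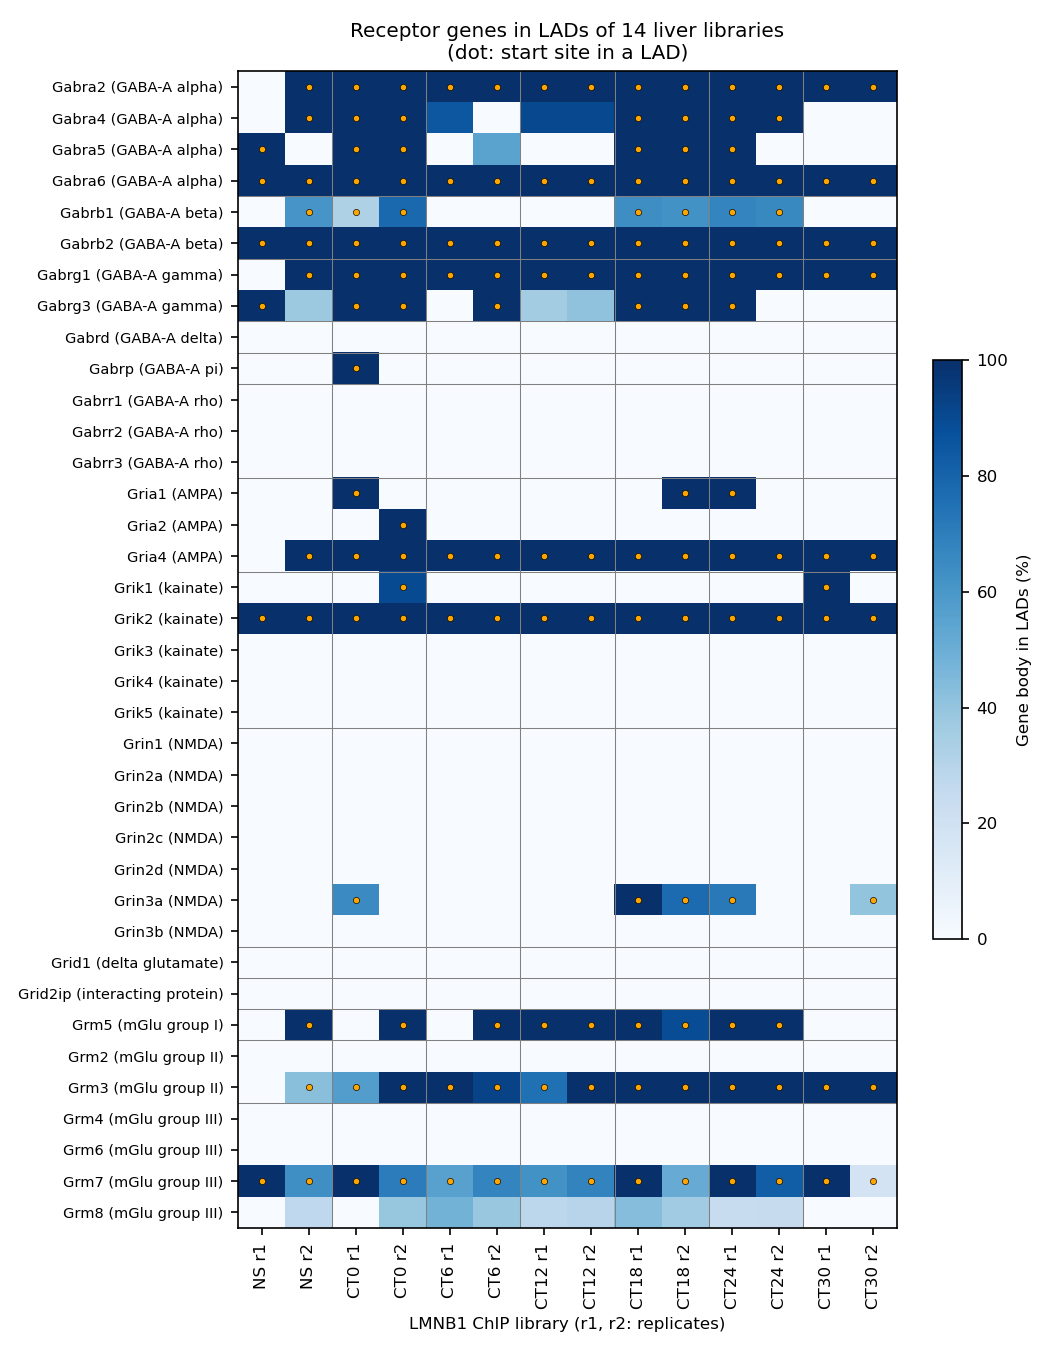
Share of the gene body in LADs (colour, in percent) for 37 of the 42 receptor genes in the 14 liver libraries, with genes in rows by subunit class, libraries in columns (r1 and r2, replicate 1 and 2) and a dot where the start site lies in a LAD. The rows of Gabra6, Gabrb2 and Grik2 are at 100% throughout, and those of 6 of the 7 NMDA receptor genes are empty.

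Among the 16 GABA-A receptor genes, 12 were in a LAD in at least 1 library (75%, against 17.1% of all genes). The alpha genes Gabra2, Gabra4, Gabra5 and Gabra6, the beta genes Gabrb1 and Gabrb2 and the gamma genes Gabrg1 and Gabrg3 were each in a LAD in at least 6 libraries. Of the 5 delta, pi and rho genes only Gabrp was in one, in 1 library. That is 20% of the 5 genes, near the 17.1% of all genes. These alpha, beta and gamma genes stand in 3 clusters, on chromosomes 11, 5 and 7, and each cluster behaved in its own way.

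On chromosome 11, Gabra6 (42306437 to 42321072), known from cerebellar granule cells, and Gabrb2 (42419757 to 42629028), a beta subunit gene widely used in the adult brain, lay within a single LAD of 6.30 to 7.29 Mb in each of the 14 libraries. Both genes were covered to 100% throughout. The Gabrb2 start site lay between 0.406 and 0.918 Mb inside the LAD, and that of Gabra6 between 0.505 and 1.02 Mb.

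The cluster on chromosome 5 (70751047 to 72149037, 1398 kb) holds Gabrg1, Gabra2, Gabra4 and Gabrb1, with Cox7b2, a cytochrome c oxidase subunit gene, in between. Here a LAD border fell within the cluster. NS replicate 1 had no LAD over any of it, and the nearest LAD was 8.50 Mb from the Gabrg1 start. In the other 13 libraries one LAD of 2.73 to 3.90 Mb covered Gabrg1 and Gabra2 whole and ended between positions 71445000 and 72040000. Cox7b2 had its start site in a LAD in 10 libraries.

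The far end of that LAD lay around the start sites of Gabra4 and Gabrb1. These genes are arranged head to head, with start sites 195 bp apart on opposite strands and an overlap of 196 bp, and their start sites had the same state in every library. Both start sites were in a LAD in NS replicate 2 and in both libraries of CT0, CT18 and CT24, and outside in NS replicate 1 and in both libraries of CT6, CT12 and CT30. Replicates of each CT therefore had the same state, and the 2 NS mice differed.

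The LAD covered 32.2% and 77.8% of Gabrb1 at CT0 (55.0 ± 32.3%), 63.9% and 62.3% at CT18 (63.1 ± 1.15%), and 67.2% and 66.0% at CT24 (66.6 ± 0.864%). It covered 0% in both libraries of CT6, CT12 and CT30, and 0% and 60.7% in NS. The values of CT0, CT18 and CT24 thus lay above those of CT6, CT12 and CT30. These sets of CTs were formed from the same values, so their separation is no test. In the permutation test among CTs given below, Gabrb1 was not called.

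Gabra4, which extends toward the inside of the LAD, was covered whole in the 7 libraries with its start in a LAD. Coverage was 85.0% in CT6 replicate 1 and 90.6% in both CT12 libraries, and 0% in NS replicate 1, CT6 replicate 2 and both CT30 libraries. In the 3 partly covered libraries the border stood 13.3 kb (CT6 replicate 1) and 8.31 kb (CT12) from the Gabra4 start. The border step was 35 kb in CT6 replicate 1, and 5 and 10 kb in CT12 replicates 1 and 2. The states called in CT6 replicate 1 and at CT12 thus rest on distances below or near the step. In CT6 replicate 2 the border was 0.213 Mb away, and in the CT30 libraries 0.203 and 0.128 Mb.

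On chromosome 7, Gabrg3 (56716465 to 57387188) and Gabra5 (57407672 to 57510059), the latter known from the hippocampus, were both covered whole in NS replicate 1, both CT0 libraries, both CT18 libraries and CT24 replicate 1. Neither was in a LAD in CT6 replicate 1, CT24 replicate 2 and both CT30 libraries. The remaining 4 libraries were intermediate.

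In these 4 libraries 2 LADs flanked an uncovered middle that included the Gabra5 start. NS replicate 2 had 37.5% of Gabrg3 and 0% of Gabra5 in LADs. CT12 libraries had 35.6% and 40.8% of Gabrg3 and 0% of Gabra5. In CT6 replicate 2, Gabrg3 was covered whole and Gabra5 to 55.0%, and the Gabra5 start lay 0.0461 Mb outside. The single LAD over both genes in the 6 fully covered libraries ranged from 2.06 Mb in CT18 replicate 2 to 9.72 Mb in CT24 replicate 1, so that replicates with the same gene state differed in LAD size. For these start sites the replicates of CT0, CT12, CT18 and CT30 had the same state, while NS and CT24 differed between replicates, as did CT6 for Gabrg3.

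**Figure D2:**
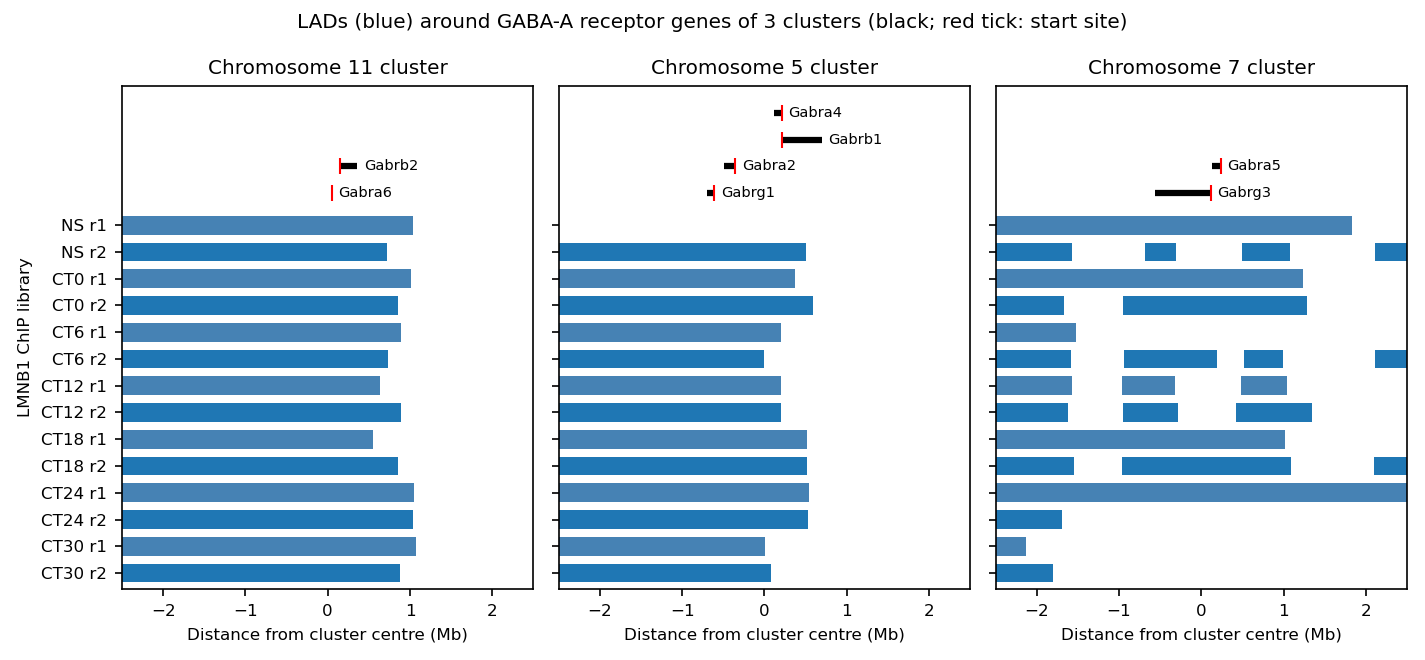
LADs (blue bars) in each library around GABA-A receptor genes of 3 clusters (black bars, red tick at the start site), with distance from the cluster centre in Mb. Gabra6 and Gabrb2 are inside a LAD in all 14 libraries, the chromosome 5 genes span a LAD end in 13, and Gabrg3 and Gabra5 are covered whole in 6 libraries and uncovered in 4.

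Genes for the remaining GABA-A subunits stood outside LADs, as most genes did, except Gabrp in 1 library. Gabrr1 and Gabrr2, adjacent rho subunit genes known from the retina (chromosome 4, 33062999 to 33163588), were in a LAD in 0 of 14 libraries, with the nearest LAD 0.855 to 11.5 Mb away. Gabrr3 was in none either, but a LAD came within 0.00733 Mb of its start in the closest library. Gabrd, the delta subunit gene of extrasynaptic receptors, was 7.56 to 42.6 Mb from a LAD. Gabrp, the pi subunit gene, lay in a LAD in CT0 replicate 1 only and was 0.0690 to 3.11 Mb outside in the other 13 libraries.

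Among AMPA receptor genes, the 3 autosomal members differed. Gria4 (chromosome 9, 4417896 to 4796234) was covered whole in 13 libraries and 0% in NS replicate 1, where the nearest LAD was 5.02 Mb away. Gria1 (chromosome 11, 57011387 to 57330244), which encodes a subunit central to synaptic plasticity, was covered whole in CT0 replicate 1, CT18 replicate 2 and CT24 replicate 1, and 0% in the remaining libraries. Gria2 (chromosome 3, 80681450 to 80802835), whose subunit limits calcium entry, was covered whole in CT0 replicate 2 only. No time point had Gria1 or Gria2 in a LAD in both mice.

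Kainate receptor genes were at the extremes. Grik2 (chromosome 10, 49094833 to 49788766) was covered whole in all 14 libraries, with the start site 0.586 to 1.83 Mb inside. Grik3, Grik4 and Grik5 were in a LAD in 0 libraries. Grik1 (chromosome 16, 87895900 to 88290265) was covered to 89.8% in CT0 replicate 2 and whole in CT30 replicate 1, and was at 0% in the remaining 12 libraries.

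Of the 7 NMDA receptor genes, 6 were in a LAD in no library, where the share of all genes in none was 82.9%. They included Grin1, the subunit gene needed for every NMDA receptor, and Grin2a to Grin2d, the genes of the glutamate-binding subunits. Distances to the nearest LAD ranged from 1.18 Mb for Grin2d to 50.2 Mb for Grin2a. The remaining gene was Grin3a (chromosome 4, 49661611 to 49845744), whose subunit lowers calcium entry. With it, 14.3% of the NMDA receptor genes were in a LAD in at least 1 library, near the 17.1% of all genes. Grin3a was covered to 65.0% in CT0 replicate 1, 100% and 77.0% in the CT18 libraries, 71.5% in CT24 replicate 1 and 40.1% in CT30 replicate 2. Grin3a was at 0% in the other 9 libraries, and in CT0 replicate 2 the LAD stopped 0.00226 Mb from its start. That distance is below the border step of 4 kb in CT0 replicate 2, so the state called there is uncertain.

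Grid1, which encodes a delta glutamate receptor, is 763 kb long and was in a LAD in no library, at 0.880 to 44.9 Mb from the nearest one. Grid2ip was 34.0 to 57.5 Mb away.

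Of the 8 metabotropic genes, 3 were in a LAD in at least 1 library. In group I, which couples to phospholipase C, Grm5 (chromosome 7, 87584168 to 88134907) was in a LAD in NS replicate 2, CT0 replicate 2, CT6 replicate 2 and both libraries of CT12, CT18 and CT24. It was covered to 88.9% in CT18 replicate 2 and whole in the other 8 of these libraries, and was at 0% in both CT30 libraries and in replicate 1 of NS, CT0 and CT6.

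In group II, which inhibits adenylyl cyclase, Grm3 (chromosome 5, 9485541 to 9725170) was in a LAD at its start in 13 libraries and Grm2 in none. The covered share of Grm3 was 0% and 42.2% in NS, 57.2% and 100% at CT0, 100% and 92.3% at CT6, and 75.2% and 100% at CT12. It was 100% in each of the 6 libraries of CT18, CT24 and CT30. Grm3 was thus covered whole in both mice only at these last 3 time points.

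In group III, Grm7 (chromosome 6, 110645581 to 111567230), which encodes a presynaptic receptor, was in a LAD at its start in all 14 libraries, and Grm4 and Grm6, the latter known from retinal bipolar cells, were in none. The LAD covered the whole of Grm7 in NS replicate 1 and in replicate 1 of CT0, CT18, CT24 and CT30. It covered 18.3% in CT30 replicate 2, the lowest value, and 50.8% in CT18 replicate 2, so replicates of CT30 (59.1 ± 57.8%) and CT18 (75.4 ± 34.8%) differed widely. Elsewhere the share ran from 55.8% in CT6 replicate 1 to 82.1% in CT24 replicate 2.

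Grm8 (chromosome 6, 27275119 to 28135178) showed the reverse. Its start site was in no LAD, but in 11 libraries the 3′ part of the gene was. The share was 0% and 26.6% in NS, 0% and 39.2% at CT0, 47.7% and 38.9% at CT6, 27.9% and 29.6% at CT12, 43.0% and 36.4% at CT18, 24.1% and 24.5% at CT24, and 0% and 0.335% at CT30. A count at the start site thus misses a gene that was up to 47.7% in a LAD. Counted by any base pair, 23 receptor genes were in a LAD in at least 1 library, against 17.6% of all genes.

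**Figure D3:**
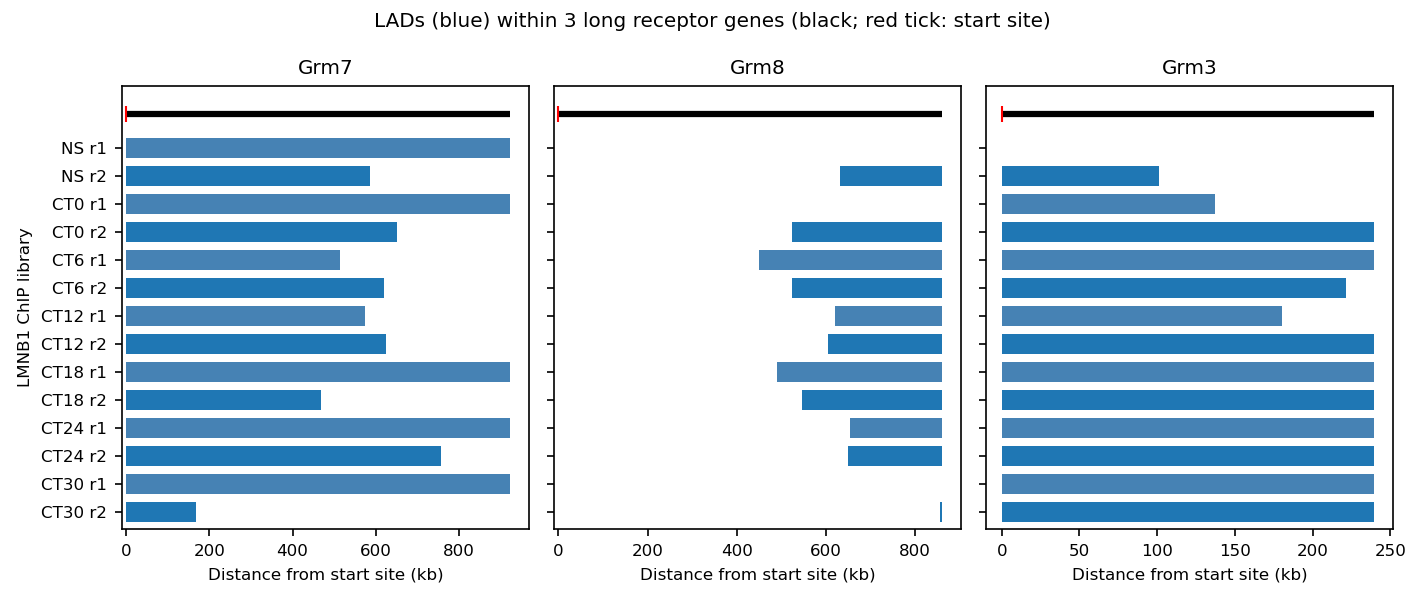
LADs (blue bars) within Grm7, Grm8 and Grm3 in each library, drawn by distance from the start site in kb along the direction of transcription. LADs reach in from the 5′ side in Grm7 and Grm3 and from the 3′ side in Grm8, where the border lay 450.2 to 857.2 kb from the start.

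Borders within genes were a feature of these long genes. In at least 1 library, 12 of the 42 genes were partly covered by a LAD, against 3.06% of all genes. Length is not matched in this comparison, with a median of 130 kb against 17.6 kb. The 12 genes held 56 borders in 12 libraries, of which 55 lay in introns and 1 in an exon, of Grik1. The share of these gene bodies that is intron was not set beside this count, so it shows no preference for introns. Grm8 held 11 borders, Grm7 held 9 and Gabrb1 held 7. The Gabrb1 borders lay between 158 and 382 kb from the start. NS replicate 1 and CT30 replicate 1 held no such border. With the whole body required, 5 receptor genes were covered in all 14 libraries, against 0.788% of all genes, and Grm7 was no longer among them.

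The number of receptor genes in a LAD varied among libraries between 10 and 19. NS libraries had 10 and 14 (12.0 ± 2.83), both CT0 libraries 19, the CT6 pair 11 and 14 (12.5 ± 2.12), both CT12 libraries 12, the CT18 pair 18 and 19 (18.5 ± 0.707), the CT24 pair 19 and 14 (16.5 ± 3.54), and both CT30 libraries 12. As a share of the 42 genes this is 23.8% to 45.2%. The share of all genes in a LAD was 4.18% and 8.28% in NS, 5.54% and 8.62% at CT0, 7.3% and 10.2% at CT6, 8.51% and 9.85% at CT12, 9.79% and 10.8% at CT18, 9.48% and 8.2% at CT24, and 6.31% and 5.79% at CT30. By the number of receptor genes, CT0 and CT18 libraries lay above those of NS, CT6, CT12 and CT30, and CT24 was divided. This grouping was read from the numbers themselves and was not tested. LAD coverage was 424 and 575 Mb at CT0, 618 and 663 Mb at CT18, 553 and 586 Mb at CT12, and 405 and 392 Mb at CT30, and its part in these numbers was not tested.

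**Figure D4:**
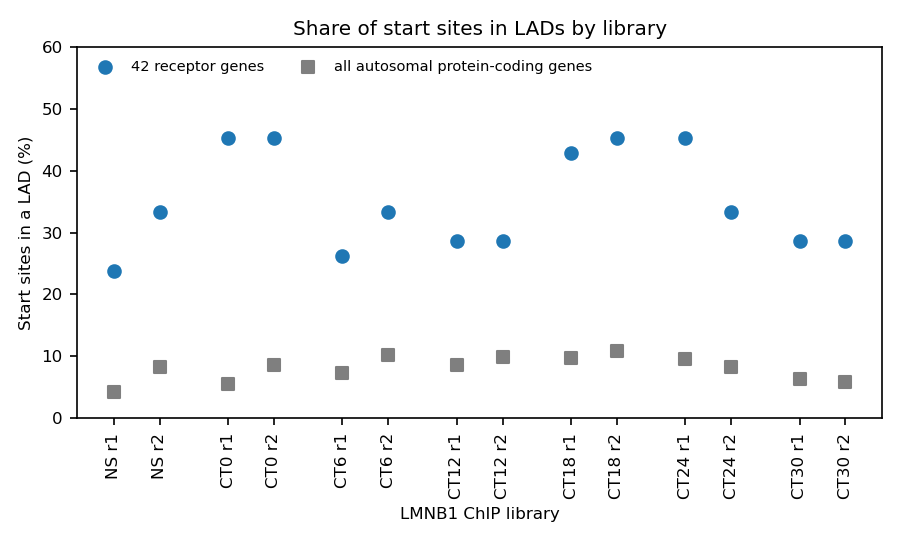
Percent of start sites in a LAD in each library, for the 42 receptor genes (circles) and all 20807 autosomal protein-coding genes (squares). Receptor genes range from 23.8% to 45.2% and all genes from 4.18% to 10.8%.

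In the intersect of replicates, that is in a LAD in both mice, there were 7 receptor genes in NS (2.45% of all genes). CT0 had 16 (3.93%), CT6 had 11 (6.21%), CT12 had 12 (7.49%), CT18 had 18 (7.79%), CT24 had 14 (6.88%) and CT30 had 11 (4.57%). The 7 genes of NS were those found in all 14 libraries. CT0 further held Gabrg1, Gabra2, Gabra4 and Gabrb1 of chromosome 5, Gabrg3 and Gabra5 of chromosome 7, Gria4 and Grm3, and CT18 further held Grm5 and Grin3a.

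NS replicate 1 stood apart in this count. Without it, 11 receptor genes instead of 7 were in a LAD in every library, against 2.02% of all genes, the 4 additional genes being Gabra2, Gabrg1, Gria4 and Grm3. Its LADs were the fewest and its border step the largest, and the part of these in the absent calls was not tested.

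Entrainment was addressed by NS against CT0. CT0 mice had been fasted for 24 h and NS mice had not. NS mice were taken at noon, whereas CT0 is the time of lights-on. Entrainment thus cannot be told apart from fasting or time of day in this comparison. In both mice of CT0 and neither of NS there were 0 receptor genes, against 0.346% of all genes, and 0 in the opposite direction, against 0.38%. With 2 mice against 2, the smallest two-sided exact permutation p is 0.333, so no single gene could pass a threshold of 0.05.

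Change over the circadian times was addressed with the 12 CT libraries. In both libraries of at least 1 CT and neither of another were 7 receptor genes, against 5.48% of all genes. Among the 7 were Gabra4, Gabrb1, Gabra5, Gabrg3, Grin3a and Grm5. Only genes in a LAD in at least 1 library can meet this criterion. Of such genes, 7 of 22 receptor genes met it, and 1140 of 3557 over all genes. The receptor genes were thus near the share of all genes found in LADs. The 7 receptor genes belong to 4 loci, the clusters of chromosomes 5 and 7, Grin3a and Grm5. Gabra5 and Gabrg3 were in a LAD in both mice at CT0 and CT18 and in neither at CT12 and CT30.

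The gene body share was compared among CTs by exact permutation, in which the 12 libraries were paired in every possible way (10395 divisions), with Benjamini-Hochberg adjustment over the 3210 genes whose share varied. Of these genes, 0 passed an adjusted p of 0.05 (0% called), and 46 had an unadjusted p below 0.05 (1.43%). Among receptor genes, 15 varied and 27 had a constant share, and 0 were called. The smallest p among the receptor genes was 0.00433 for Gabra4 by this exact test, a value shared with 1 other gene as the smallest of all genes, and Gabrb1, its head-to-head neighbour, had an exact permutation p of 0.0188. Both had an adjusted p of 1. The other 13 also had an adjusted p of 1. With 12 libraries and no tied values, the smallest p that these permutations can give is 9.62e-05. Even then a single gene could not go below an adjusted p of 0.309, and at least 7 genes at that p were needed for any call. Many shares were tied at 0% or 100%, which raises the smallest p that a gene can reach. A gene covered in 1 CT library only, such as Gria2, has the same statistic in every division and could not be called. The absence of calls therefore does not show that LAD coverage of these genes stayed the same.

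Receptor genes are longer and lie in gene-poorer surroundings than most genes. Their median length was 130 kb against 17.6 kb for all genes, the median number of other protein-coding start sites within 1 Mb on either side was 11 against 30, and GC content over the same 2 Mb was 40.2% against 44.2%. Promoter CpG observed over expected differed less, with a median of 0.508 against 0.569. The 7 genes in a LAD in all libraries had 0 to 5 neighbouring start sites, and the 20 genes in none had a median of 37.

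Gene density and LAD state went together among the receptor genes. All 13 with at most 5 neighbours were in a LAD in at least 1 library, as were 54.0% of all genes of this density. With 6 to 10 neighbours it was 4 of 7 (all genes, 24.6%), with 11 to 20 it was 4 of 7 (11.9%), with 21 to 40 it was 0 of 7 (13.4%) and with more it was 1 of 8 (17.1%), the one being Grik1. Grm8, with 8 neighbours, and Grik4, with 10, had their start site outside LADs in all libraries, although the 3′ part of Grm8 was in one.

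**Figure D5:**
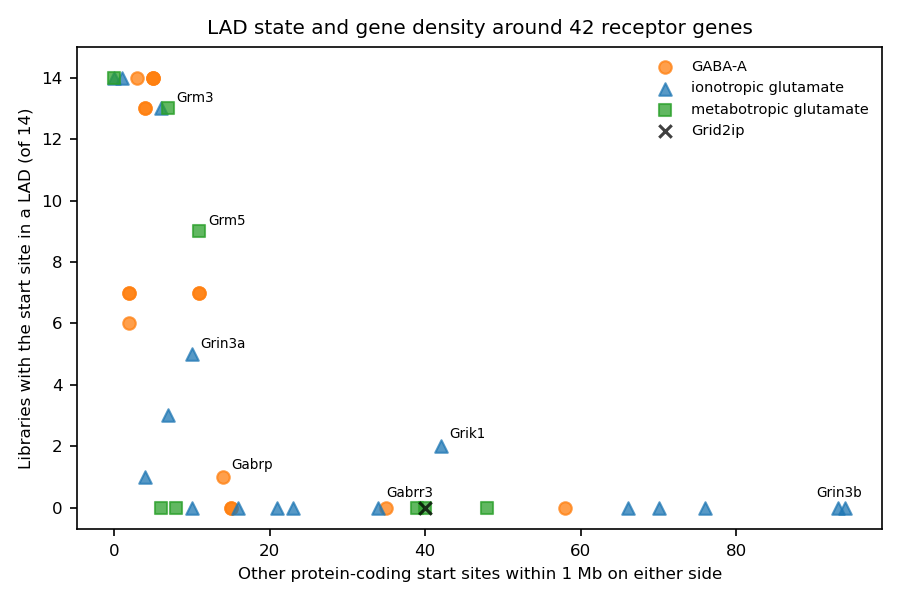
Number of libraries (of 14) with the start site in a LAD plotted against the number of other protein-coding start sites within 1 Mb on either side, for the 42 receptor genes. All 7 genes at 14 libraries have at most 5 neighbours, and Grik1 is the one gene with more than 14 neighbours that was in a LAD in any library.

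Other long genes in gene-poor surroundings also had a higher share than all genes, and the part of length or density in this was not tested. Of all genes of at least 200 kb with at most 10 neighbours, 44.4% were in a LAD in at least 1 library, and of the receptor genes of this kind 9 of 12. Among genes with CpG observed over expected of at least 0.6, the share was 6.86% for all genes and 9 of 18 for receptor genes, whereas below 0.6 it was 26.2% and 13 of 24. Over the genes in a LAD in all libraries, median CpG was 0.139 for all genes and 0.523 for the 7 receptor genes.

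Other synaptic and channel genes are given for comparison, by counts alone. Of 79 potassium channel genes, 0 were in a LAD in all 14 libraries and 12 in at least 1 (15.2%), near the 0.875% and 17.1% of all genes, with a median length of 29.6 kb and a median of 20 neighbours. Of 5 neurexin and neuroligin genes, 3 were in a LAD in at least 1 library. Potassium channel genes are shorter than the receptor genes, so length is not matched in this comparison.

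Further genes of GABA and glutamate signalling were in a LAD in at least 1 library at a share near that of all genes without olfactory and vomeronasal receptor genes. Of 71 such genes, 2 had the start site in a LAD in at least 7 libraries, where the share of all genes was 8.2%. In at least 1 library it was 9 genes (12.7%, against 17.1% of all genes). Without olfactory and vomeronasal receptor genes, the share of all genes was 12.4% in at least 1 library and 4.51% in at least 7. By role, these were 0 of 8 genes of synthesis and breakdown, 1 of 15 transporters, 3 of 24 auxiliary and trafficking partners, 2 of 19 postsynaptic scaffolds and 3 of 5 metabotropic GABA and glycine receptors. The gene in a LAD in all 14 libraries was Cbln2, a cerebellin that binds the delta glutamate receptors. Glra3, a glycine receptor subunit gene, was in a LAD in 7 libraries.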

How the data were processed

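LADs of 14 livers were analysed as deposited: the files list start and end positions per mouse on mm10, with no score, count or strand, and inputs and RNA-seq were not analysed here. The authors mapped reads with Bowtie2, removed duplicates with Picard, brought ChIP and input to equal depth and called LADs with EDD on each mouse, with settings averaged over 10 runs. EDD joins bins of a size that differed among libraries, so a border is known no better than that step. Groups and replicates are those of the labels; the deposited names carry another number (1 to 3).

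Genes were protein-coding autosomal genes of GENCODE vM21 on GRCm38, 42 of 20807 by the symbol rule, each with its gene-level (most upstream) start. RefSeq starts were found for 28 of the 42 and changed the number of libraries for 0 of them. LADs 1 bp apart were joined for distances. The members and lists were chosen with earlier results of these data known. Each member entered the counts, but some are not reported here by name. Others were described with values in every library for clusters and for genes in a LAD in 1 to 13 libraries; other signalling genes were named from 7 libraries. Shares of members were described, not tested. Differences among CTs were tested by exact permutation (F ratio, 10395 divisions, two-sided by construction, Benjamini-Hochberg over 3210 genes). The test was checked on simulated data that, unlike these shares, held no tied values. Python 3.11.15, NumPy 2.4.6 and matplotlib 3.10.9 were used. Alternatives were other definitions of a gene in a LAD, LAD size and gaps, single replicates, left-out libraries and other backgrounds.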

Additional observations from a re-analysis of the deposited data

How the results depend on the processing

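Of 204 alternative values, 198 stayed close to those reported and 6 did not, where close allowed a ratio of up to 1.5. By this rule 5 genes in all libraries with the whole body required, instead of 7, counted as close. The 198 include the permutation runs, which could hardly give a call. The number of receptor genes in a LAD in every library, 7 over all 14, was 11 with replicate 2 only, and 11 and 12 with only the libraries numbered 2 or 3 in the deposited names, a choice made after seeing the data. These choices use fewer libraries and leave out NS replicate 1. Leaving out each library in turn gave 7 to 11 genes in every library (11 without NS replicate 1), 21 to 22 in at least 1, 12 to 16 in at least 0.5 of the libraries, and a median of 14 per library. With 1 mouse left out, the genes in a LAD were 10 to 14 for NS (14 without NS replicate 1, against 7 in both), 19 to 19 for CT0, 11 to 14 for CT6, 12 to 12 for CT12, 18 to 19 for CT18, 14 to 19 for CT24 and 12 to 12 for CT30. Among all genes of at least 200 kb, 28.3% were in a LAD in at least 1 library, against 17.1% of all lengths.

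The permutation test called 0 genes and 0 receptor genes under each alternative run, but this says little on stability. With a CT left out the smallest possible p is 0.00106 without tied values, and 60 to 67 genes at that p were needed for a call. Replicate numbers were not taken to pair the mice: the labels give no shared origin, and 6 of 21 pairs of time points, not each of them, had a correlation of same-numbered mice above 0.1 (range -0.174 to 0.491, the highest for NS and CT0). With the replicate number as a block (720 orders), 0 genes passed the adjusted threshold and 12 had an unadjusted p below 0.05, 2 of them receptor genes; there, 90 genes at the smallest p were needed for a call. Depth per library is unknown, and 2 mice per time point limit each comparison.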

Other observations

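The X-linked receptor genes fell outside the autosomal rule. Gria3, an AMPA receptor gene, was in a LAD in 0 of 14 libraries, at 2.36 to 106 Mb from the nearest one. Gabra3, Gabre and Gabrq, which form a GABA-A receptor gene cluster on the X chromosome, were in 0 libraries as well, at 14.3 to 74.9 Mb, 14.7 to 75.3 Mb and 14.1 to 74.7 Mb. The alpha gene Gabra3 thus differed in state from Gabra2, Gabra4, Gabra5 and Gabra6, each of which was in a LAD in at least 6 libraries. LAD coverage of the X chromosome and the share of all X-linked genes in LADs are not given here. Whether this difference is particular to Gabra3 or shared by the X chromosome was therefore not tested. Among further signalling genes named after their values were seen, Nlgn1 and Dlg2 had their start site in a LAD in 3 and 2 libraries, while a median of 74.7% and 20.4% of the gene body was in LADs.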
